A study of Mus musculus with 14 samples.

Results

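The genes described here are 10 secreted antagonists of Wnt signalling, read in a mouse osteoblast line under control and MACF1 knockdown conditions. They were taken by gene symbol from the table of 24346 genes, whatever their values: Sfrp1, Sfrp2, Sfrp4, Frzb, Wif1, Dkk1, Dkk2, Dkk3, Sost and Notum. MC3T3-E1 is an established line of mouse osteoblast precursors, and its polyadenylated RNA was sequenced in 14 libraries. The labels name 2 conditions, control and MACF1 knockdown, and 4 days for each: days 0, 3 and 5 are each covered by 2 libraries of a condition and day 10 by 1. MACF1 is a cytoskeletal crosslinker of actin and microtubules, and the series title ties it to osteoblast differentiation through repressors of Wnt signalling. All groups share the 1 cell line. How the knockdown was made, how many clones it rests on and what day 0 marks is not stated in these sources. The design text calls the pairs biological replicates, but nothing says they came from separate cultures, so the p-values reflect only how these libraries vary, and that variation may be technical.

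Wnt ligands act by binding Frizzled receptors together with the co-receptors Lrp5 and Lrp6, which stabilises beta-catenin and turns on target genes through Tcf and Lef factors. Secreted antagonists act outside the cell in several ways. The Sfrp proteins, with Frzb among them, carry a Frizzled-like domain, and together with Wif1 they bind Wnt ligands directly. Dkk1, Dkk2 and sclerostin, the product of Sost, bind the co-receptors, while Dkk3 is the divergent member of the Dkk family and does not act as a typical co-receptor antagonist. Notum is an enzyme that removes the lipid Wnt ligands need. In bone, sclerostin is made chiefly by osteocytes, and blocking it raises bone formation.

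The libraries held 8044687 to 23301514 counts. Control day 3 replicate 2 was the smallest and stood apart: ribosomal protein genes took 19.2% of its counts against 5.48% to 11.0% in the other libraries, and the correlation with its partner was 0.916 against 0.993 to 0.994 in the other pairs. Macf1 was read as a check of the labels. In CPM, which are counts scaled to library size by the trimmed mean of M values, it stood at 154 to 205 in 6 of the 7 control libraries, at 55.2 in control day 3 replicate 2, and at 129 to 181 in the 7 libraries labelled knockdown. Averaged over days 0, 3 and 5 its log2 fold change was 0.13 (SE 0.24, adjusted p = 0.724 by the quasi-likelihood test of edgeR with Benjamini-Hochberg adjustment), or −0.08 without control day 3 replicate 2 and 0.51 without control day 3 replicate 1. A lower Macf1 level was thus not seen at the replicated days. At day 10, with 1 library each, the level labelled knockdown was 0.661 times that of control (129.4 against 195.6 CPM, counting interval of the ratio 0.628 to 0.697). The groups are therefore called "labelled knockdown" below. All 9 osteoblast markers passed the count filter, with a summed level of 11910 to 27120 CPM.

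2 antagonists were abundant, another pair was measurable and 6 were close to the detection limit. Levels of different genes were compared by the deposited RPKM (reads scaled to gene length and library size). Sfrp2 had a mean of 166.3 RPKM over the 14 libraries and Dkk3 one of 117.9, followed by Wif1 with 9.55 and Notum with 1.18. The other 6 had means under 0.1: Sfrp4 0.095, Frzb 0.0936, Dkk2 0.0664, Sost 0.0193, Dkk1 0.00429 and Sfrp1 0.00286 RPKM. A gene was tested if it had at least 10 counts in at least 2 libraries, which held for 13130 genes and for 6 of the 10 antagonists. Sfrp2, Dkk3, Wif1 and Notum reached 10 counts in all 14 libraries. Frzb passed only through control days 5 and 10, and Dkk2 only through 2 libraries with 10 and 11 counts. Sfrp1, Sfrp4, Dkk1 and Sost were not tested.

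**Figure D1:**
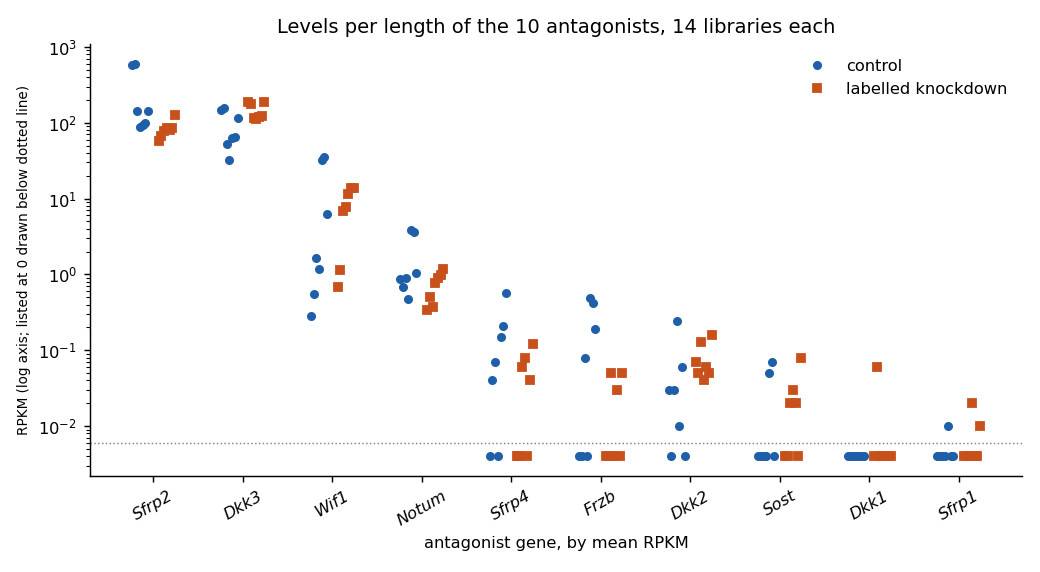
Deposited RPKM (log axis) of the 10 antagonists in the 7 control libraries (circles) and the 7 libraries labelled knockdown (squares), drawn from day 0 at the left to day 10 at the right within each condition; values listed at 0 are drawn below the dotted line. Sfrp2 and Dkk3 lie above 30 RPKM in every library, and 6 genes stay below 1 RPKM throughout.

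Averaged over days 0, 3 and 5, Dkk3 and Wif1 were higher and Sfrp2 and Notum lower in the libraries labelled knockdown, so that the antagonists moved in both directions. These 4 of the 10 passed an adjusted p of 0.05, the threshold used throughout, where 26.9% of all genes tested did (15.0% higher and 11.9% lower). The averaged log2 fold change (labelled knockdown over control) was −1.43 for Sfrp2 (SE 0.11, adjusted p = 9.6e-06, edgeR), −1.17 for Notum (SE 0.22, adjusted p = 0.00386), 0.78 for Dkk3 (SE 0.10, adjusted p = 0.000426) and 0.59 for Wif1 (SE 0.17, adjusted p = 0.0274). The Wif1 average joined opposite differences at days 3 and 5 and turned to −0.18 when day 3 was left out. It missed the threshold without control day 0 replicate 1, control day 5 replicate 1 or 2, knockdown day 0 replicate 2, knockdown day 3 replicate 1 or 2, or knockdown day 5 replicate 2 (adjusted p = 0.0535 to 0.095), and on log2(RPKM + 1) values with limma (0.0931). RNA from whole cultures cannot tell fewer cells of a kind from less RNA per cell, and this holds for every level given here.

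At single days the set of antagonists that differed changed. At day 0, 1 of the 10 passed, Sfrp2, where 7.09% of all genes tested did (4.41% higher and 2.68% lower). At day 3 Dkk3, Wif1 and Sfrp2 passed (3 of 10; all genes, 12.6%, with 7.06% higher and 5.52% lower), and at day 5 Dkk3, Wif1, Notum and Frzb did (4 of 10; all genes, 7.78%, with 5.32% higher and 2.47% lower). Frzb entered the test only through control libraries, so its place in the day 5 count follows in part from the filter. A joint test for variation of the difference over the 3 days was passed by Sfrp2 and Wif1 (2 of 10; all genes, 0.998%), and so was the change of the difference from day 0 to day 5 (2 of 10; all genes, 1.36%, with 0.800% upward and 0.564% downward). The plot of the differences by day shows the 4 genes that had counts in every library.

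**Figure D2:**
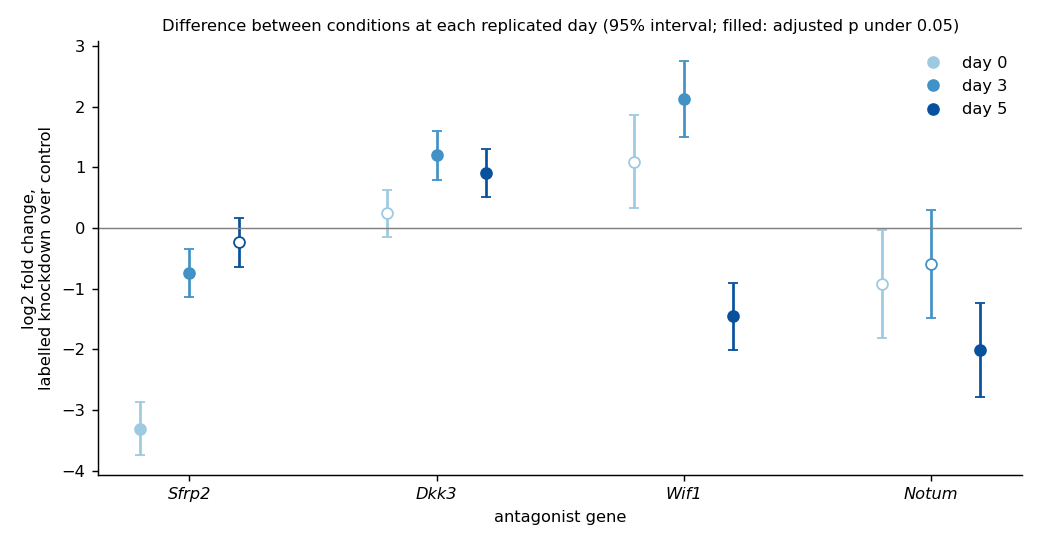
Log2 fold change of labelled knockdown over control at days 0, 3 and 5 for the 4 antagonists with at least 10 counts in all libraries; bars are 95% intervals from the fit and filled points passed an adjusted p of 0.05. The Sfrp2 difference goes from −3.31 at day 0 to −0.24 at day 5, and that of Wif1 from 2.13 at day 3 to −1.45 at day 5.

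Sequence upstream of the start was looked at for Sfrp2 and Wif1, the 2 antagonists whose difference varied between days. RefSeq promoters (GRCm38.p6, 250 bases before to 50 after the start) were found for 6 of the 10: Sfrp2, Frzb, Wif1, Dkk1, Dkk2 and Sost. The motifs searched on both strands were CTTTGAT, the type bound by Tcf and Lef factors, ACCACA, the type bound by Runx factors, and the TATA box TATAAA, none of which contains another. Below, capitals mark a motif match, and each sequence stops before the annotated gene. The Sfrp2 sequence is chr3:83766071-83766320 and that of Wif1 chr10:121033754-121033959, both on the plus strand.
Sfrp2: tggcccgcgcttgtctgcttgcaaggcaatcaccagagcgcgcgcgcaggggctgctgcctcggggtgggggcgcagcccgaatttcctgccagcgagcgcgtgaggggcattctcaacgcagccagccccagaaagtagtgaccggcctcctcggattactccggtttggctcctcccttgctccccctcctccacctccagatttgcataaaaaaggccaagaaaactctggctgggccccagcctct
Wif1: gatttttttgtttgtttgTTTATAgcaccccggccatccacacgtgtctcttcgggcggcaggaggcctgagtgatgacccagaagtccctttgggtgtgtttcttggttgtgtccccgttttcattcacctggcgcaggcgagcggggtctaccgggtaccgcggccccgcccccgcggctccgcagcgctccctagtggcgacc
The Sfrp2 promoter held none of the 3 motifs. That of Wif1 held TATAAA on the opposite strand, 232 bases before its RefSeq start, and the capitals show it as its reverse complement. Of the other 4, Dkk1 held ACCACA at −207 and TATAAA at −54, and Dkk2 held TATAAA at −32. CTTTGAT was in none of the 6. Over 32851 promoters of the same length, 3.73% held CTTTGAT, 16.8% ACCACA and 13.6% TATAAA, on either strand.

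Sfrp2 (ENSMUSG00000027996.11, chr3:83766321-83774316, plus strand, GRCm38), a secreted Frizzled-related protein, was the most abundant antagonist in control at day 0 and lost most of that level by day 3. Control libraries held 1267 and 1266 CPM (day 0), 311.1 and 240.5 (day 3), 204.2 and 213 (day 5) and 316.9 (day 10). Libraries labelled knockdown held 119.1 and 136.7, 161.2 and 168.6, 169.8 and 184.1, and 277.1 CPM. The day 0 control level stood far above every other library, and at each of the 3 replicated days both control libraries lay above both labelled knockdown.

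At day 0 the labelled knockdown level was 0.101 times that of control (log2 fold change −3.31, SE 0.20, adjusted p = 1.34e-05, edgeR). The difference was −0.74 at day 3 (SE 0.18, adjusted p = 0.0288) and −0.24 at day 5 (95% interval −0.64 to 0.16, adjusted p = 0.522). The day 3 call was lost without any 1 of the 10 libraries other than the control libraries of day 3 (adjusted p = 0.0535 to 0.163), on RPKM values with limma (0.154 and 0.156 with pseudocounts of 0.1 and 1), with no filter on low counts (0.0578) and when only the groups compared were fitted (0.463). The fit of only the groups compared passed 0 of all genes tested at day 3. Without control day 3 replicate 2 the difference at that day was −0.92. The change of the difference from day 0 to day 5 was 3.07 (SE 0.26, adjusted p = 0.000395), and the joint test gave an adjusted p of 0.00117.

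Within control, Sfrp2 fell by 2.20 on the log2 scale from day 0 to day 3 (SE 0.19, adjusted p = 0.000221, edgeR) and fell by 2.60 from day 0 to day 5 (SE 0.19, adjusted p = 4.49e-05). The first call was lost when only the groups compared were fitted (0.323), a fit that passed 0 of all genes tested. With the knockdown label its log2 change from day 0 to day 5 was 0.47 (SE 0.18, adjusted p = 0.302), and also 0.47 without control day 3 replicate 1 or 2. This change passed with only the groups compared in the fit (0.0254), where 1574 of all genes tested passed against 262 in the main fit. A gene of the table on the opposite strand, Gm26771, overlaps Sfrp2, and the strand setting of the counting is not given. Gm26771 held 19 to 246 counts, or 0.695% to 7.03% of the Sfrp2 count of the same library, the highest share in control day 3 replicate 2.

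**Figure D3:**
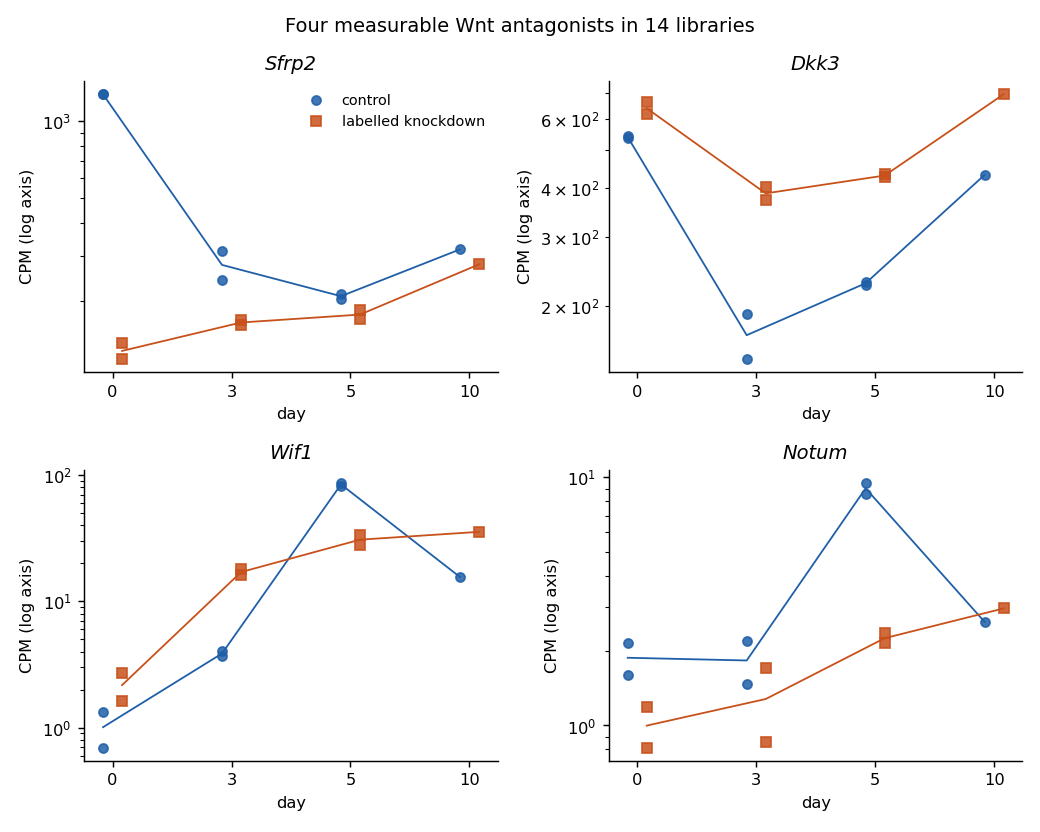
CPM (log axis) of Sfrp2, Dkk3, Wif1 and Notum by day in control (circles) and labelled knockdown (squares); each point is 1 library, lines join the group means, and day 10 has 1 library per condition. The lines of Sfrp2 come together after day 0, those of Dkk3 stay apart, and those of Wif1 cross between days 3 and 5 and again before day 10.

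Dkk3 (ENSMUSG00000030772.5, chr7:112116017-112159057, minus strand) was the other abundant antagonist and was higher in the libraries labelled knockdown at days 3 and 5. In control it held 536.1 and 543.8 CPM (day 0), 190.9 and 147.1 (day 3), 231 and 227.3 (day 5) and 432.6 (day 10). With the knockdown label it held 661.5 and 616.8, 403.7 and 372.5, 427.9 and 434.1, and 694 CPM. The conditions did not overlap at any day, and in both of them day 3 was the lowest day.

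For Dkk3 the log2 fold change (labelled knockdown over control) was 0.24 at day 0 (95% interval −0.15 to 0.64, adjusted p = 0.522, edgeR), 1.20 at day 3 (SE 0.18, adjusted p = 0.00306) and 0.91 at day 5 (SE 0.18, adjusted p = 0.0115). The day 5 call was lost without any 1 of the 4 libraries of that day, while its size stayed at 0.90 to 0.92. The day 3 call was lost when only the groups compared were fitted (0.318), a fit that passed 0 of all genes tested. Whether the difference varied between days was not settled: the joint test gave an adjusted p of 0.277 in edgeR and 0.00426 in DESeq2. Of all genes tested, 131 passed it in edgeR and 433 in DESeq2.

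Dkk3 fell in control, by 1.68 on the log2 scale from day 0 to day 3 (SE 0.18, adjusted p = 0.000805, edgeR) and by 1.24 from day 0 to day 5 (SE 0.18, adjusted p = 0.00233). The first call was lost with only the groups compared in the fit (0.387), which passed 0 of all genes tested. With the knockdown label the changes were −0.72 (adjusted p = 0.115) and −0.57 (adjusted p = 0.179). Both passed in DESeq2 (0.000355 and 0.00784) and with only the groups compared in the fit (0.00515 and 0.0116). Of all genes tested, 459 and 612 passed in DESeq2 and 1466 and 1574 in the other fit, against 119 and 262 in the main fit. The changes were −0.72 and −0.57 without control day 3 replicate 1, and −0.71 and −0.57 without replicate 2.

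Sfrp2 and Dkk3 exchanged ranks between the conditions. Per length, the Sfrp2 level was 3.96 and 3.90 (day 0), 2.73 and 2.74 (day 3), 1.48 and 1.57 (day 5) and 1.23 (day 10) times that of Dkk3 in control. The ratios with the knockdown label were 0.302 and 0.371 times, 0.669 and 0.759 times, 0.665 and 0.711 times, and 0.669 times. Sfrp2 was thus above Dkk3 in all 7 control libraries and below it in all 7 labelled knockdown. These ratios are within a library and do not depend on its scaling, though they do depend on the gene lengths behind the RPKM.

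The summed level of the 10 antagonists was highest where Sfrp2 was highest. It was 727.8 and 757.7 RPKM in control at day 0 and 123.5 to 269 RPKM in the other control libraries, against 200.2 to 327.4 RPKM in the libraries labelled knockdown. Sfrp2 and Dkk3 together made up 80.4% and 80.7% of it in control at day 5 and at least 93.4% in each of the other 12 libraries. Wif1 made up most of the remainder in control at day 5, with 16.9% and 17.4% of the sum. At day 3 both labelled knockdown libraries (200.2 and 204.4 RPKM) lay next to control replicate 1 (200.1) and above control replicate 2 (123.5). The deposited RPKM lack the trimmed-mean scaling of the CPM, so the sum of replicate 2 depends on the scaling. Sfrp2 stood there at 240.5 CPM against 311.1 CPM in replicate 1, but at 89.08 against 144.5 RPKM.

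**Figure D4:**
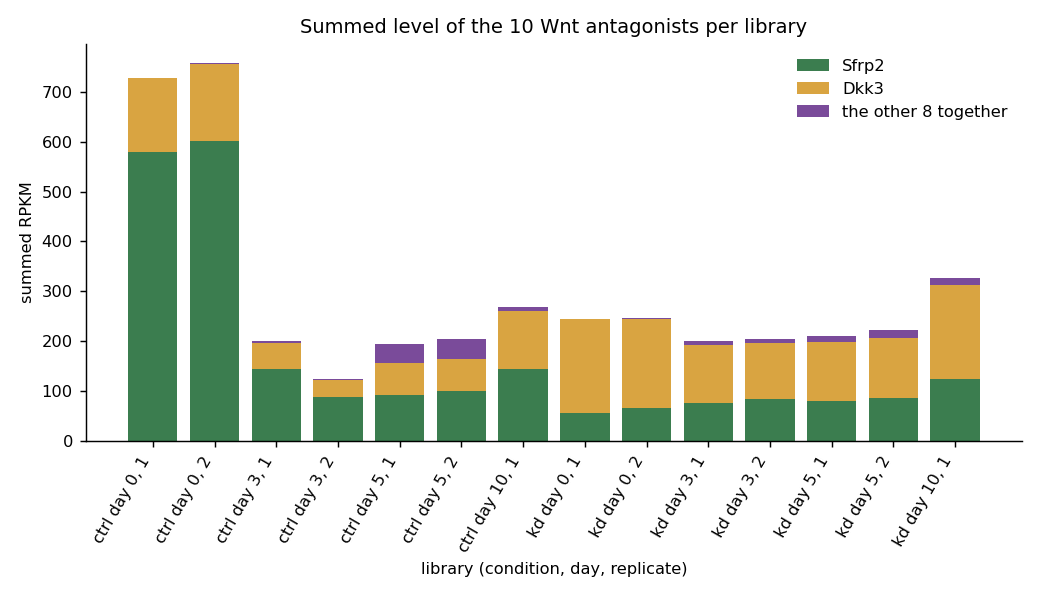
Summed deposited RPKM of the 10 antagonists per library, with Sfrp2, Dkk3 and the other 8 stacked; ctrl is control and kd labelled knockdown, followed by the day and the replicate. The 2 control libraries of day 0 reach 727.8 and 757.7 RPKM and the others at most 327.4, and the share of the other 8 is widest in control at day 5.

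Wif1 (ENSMUSG00000020218.9, chr10:121033960-121100650, plus strand), Wnt inhibitory factor 1, rose from day 0 to day 5 in both conditions, but to different heights and at different days. Control libraries held 0.695 and 1.32 CPM (day 0), 4.05 and 3.67 (day 3), 82 and 86.5 (day 5) and 15.6 (day 10). Libraries labelled knockdown held 1.63 and 2.71, 16.1 and 18, 28.2 and 33.4, and 35.5 CPM. The conditions did not overlap at days 0, 3 and 5: the labelled knockdown libraries were the higher at days 0 and 3 and the lower at day 5. With 2 libraries per group this is a description only. At day 10 the 1 library labelled knockdown was above that of control.

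At day 3 Wif1 was 4.37 times higher with the knockdown label (log2 fold change 2.13, SE 0.28, adjusted p = 0.00169, edgeR), and at day 5 it was at 0.365 times the control level (−1.45, SE 0.25, adjusted p = 0.00613). Fitting only the groups compared, the day 3 call was lost (0.137), and 0 of all genes tested passed. The day 0 value was 1.10 (SE 0.35, adjusted p = 0.0977), and it was 1.09 without control day 3 replicate 1 or 2. The day 5 call was lost without control day 5 replicate 2 (0.061) or knockdown day 5 replicate 1 (0.0878). The joint test over the 3 days gave an adjusted p of 0.00392 and stayed under 0.05 in the 20 alternatives run (at most 0.0412). The change of the difference from day 0 to day 5 was −2.55 (SE 0.42, adjusted p = 0.0173). It missed the threshold without control day 0 replicate 1, knockdown day 0 replicate 2 or any of the 4 libraries of day 5 (adjusted p = 0.0684 to 0.112).

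Within control, Wif1 rose 3.87-fold from day 0 to day 3 (log2 1.95, SE 0.34, adjusted p = 0.00861, edgeR), a call lost without control day 0 replicate 1. From day 3 to day 5 it rose 21.6-fold (log2 4.43, SE 0.30, adjusted p = 0.00016), and over both steps 83.7-fold (6.39, SE 0.33, adjusted p = 7.58e-06). With only the groups compared in the fit, the calls of both single steps were lost (0.423 and 0.095), and 0 of all genes tested passed in either. In the libraries labelled knockdown Wif1 rose 7.92-fold from day 0 to day 3 (2.99, SE 0.29, adjusted p = 0.00145) and 14.3-fold from day 0 to day 5 (3.84, SE 0.29, adjusted p = 0.000195). Their step from day 3 to day 5 was 0.85 (unadjusted p = 0.00652, adjusted p = 1.0).

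Notum (ENSMUSG00000042988.8, chr11:120653788-120661175, minus strand), the Wnt deacylase, was low but had its peak in the same group as Wif1. Control libraries held 2.15 and 1.60 CPM (day 0), 2.19 and 1.47 (day 3), 9.49 and 8.57 (day 5) and 2.61 (day 10). Libraries labelled knockdown held 0.815 and 1.18, 0.859 and 1.70, 2.15 and 2.35, and 2.96 CPM. Both control libraries of day 5 stood above all 12 others, the conditions overlapped at day 3, and they did not at days 0 and 5.

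At day 5 Notum was at 0.249 times the control level in the libraries labelled knockdown (log2 fold change −2.01, SE 0.35, adjusted p = 0.00665, edgeR). This call was lost without control day 5 replicate 1 (0.0617), knockdown day 5 replicate 1 (0.0847) or knockdown day 5 replicate 2 (0.0598). The differences at day 0 (−0.92, adjusted p = 0.232) and day 3 (−0.59, adjusted p = 0.329) did not pass. Whether the difference varied between the days did not pass either (adjusted p = 0.526), so a difference particular to day 5 was not shown.

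In control, Notum rose 4.77-fold from day 3 to day 5 (log2 2.25, SE 0.37, adjusted p = 0.0189, edgeR) and 4.80-fold from day 0 to day 5 (2.26, SE 0.36, adjusted p = 0.00389). The first call was lost without any 1 of the 4 libraries of day 5, and the second without control day 0 replicate 2. The first was also lost with only the groups compared in the fit (0.671), which passed 0 of all genes tested. With the knockdown label the log2 change from day 0 to day 5 was 1.18 (SE 0.39, adjusted p = 0.214), and also 1.18 without control day 3 replicate 1 or 2. Notumos and Myadml2os, on the opposite strand, overlap Notum. Notumos held 0 to 5 counts, and no count of Myadml2os is given here.

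Frzb (ENSMUSG00000027004.3, chr2:80411970-80447625, minus strand), also known as Sfrp3, was found mainly in control at days 5 and 10. Its counts in control were 0 and 0 (day 0), 4 and 0 (day 3), 30 and 18 (day 5) and 13 (day 10). With the knockdown label they were 0 and 0, 3 and 0, 2 and 0, and 3. Only those 3 control libraries exceeded 4 counts. Control at day 5 was at 15.7 times the level that 3 counts over the group would give in control at day 0, a value with no counting interval. It exceeded the labelled knockdown group of day 5 30.2-fold, with a counting interval (95%, exact) of 7.91 to 256.

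Both Frzb comparisons passed in edgeR, day 5 between the conditions with an adjusted p of 0.0397 and control day 5 against day 0 with 0.0272. DESeq2 made the first call (0.033) and gave no adjusted p for the second. The first was lost without any 1 of the 10 libraries other than the control libraries of day 3 (0.051 to 0.205). The second was lost without control day 0 replicate 1 (0.146) or 2 (0.143), or control day 5 replicate 1 (0.137) or 2 (0.0985). Frzb entered the test only through its counts in control, so these calls follow in part from the filter and support nothing about the antagonists as a group.

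Sfrp4, another ligand-binding Sfrp, had 0 and 1 (day 0), 2 and 0 (day 3), 5 and 5 (day 5) and 21 (day 10) counts in control. Under the knockdown label it had 0 and 0, 2 and 2, 0 and 1, and 4 counts. The highest library was again a control library, at day 10, where the ratio of control over labelled knockdown was 4.63 (counting interval 1.56 to 18.6). At day 5 the same ratio was 12.6 (1.79 to 546), from 10 counts against 1. No test across libraries was made, and these intervals cover counting error only.

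Sost, the osteocyte product, had 10 counts in all: 2 and 2 in control at day 5, and 1 and 1, 1 and 0, and 3 in the libraries labelled knockdown at days 3, 5 and 10. No count fell in either condition at day 0, where 3 counts correspond to 0.163 to 0.209 CPM, the limit that a count of 0 allows. Osteocyte markers were nevertheless present, with 5 of 6 past the filter and only Fgf23 below 10 counts in every library. Their summed level was 61.4 to 227 CPM in control and 186.9 to 388.8 CPM with the knockdown label.

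The remaining co-receptor binders were scarcely found. Dkk1 had 2 counts, both in 1 labelled knockdown library of day 0, and Dkk2 had 56 counts over 12 libraries, at most 8 in a control library and at most 11 in one labelled knockdown. Dkk2 had 2 and 0 counts in control against 5 and 3 with the knockdown label at day 0, overlapped between the conditions at days 3 and 5, and had 0 against 11 counts at day 10. The day 10 library labelled knockdown was at 4.16 times the level that 3 counts would give in control, a value with no counting interval and no replicate check. None of the Dkk2 tests between conditions passed (adjusted p = 0.56 to 0.814, edgeR). Sfrp1 had 3 counts, each in a different library. At this depth a difference in Dkk1 or Sfrp1 was not detectable.

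Wif1 and Notum, both lower with the knockdown label at day 5, were highest in control at day 5, and so was the sum of the osteoblast markers. The 9 markers summed to 26880 and 27120 CPM there, against 11910 to 21100 CPM in the other 12 libraries, and to 16820 and 17510 CPM in the labelled knockdown group of the same day. By group mean, 4 of the 9 were highest in control at day 5 (Ibsp, Alpl, Col1a1 and Sp7), and Ibsp alone stood at 8390 and 7280 CPM there. Runx2 was highest in control at day 3, Spp1 in control at day 10, and Bglap, Bglap2 and Col1a2 in the day 10 library labelled knockdown. Averaged over days 0, 3 and 5, the 9 markers went both ways between the conditions. With the knockdown label 3 rose (Bglap, Bglap2 and Spp1), 3 fell (Ibsp, Alpl and Runx2) and 3 did not pass. The part of these 9 markers in the Wif1, Notum and Frzb values was not tested. Averaged over days, 4 of the 5 osteocyte markers tested rose and 1 (Mepe, at about 1 CPM or less) fell. Of all genes tested, 15.0% were higher and 11.9% lower. The median log2 fold change of these markers was 1.38 against −0.003 over all genes tested, and Phex and Dmp1 were at 3.59 and 1.38. At day 5 Dmp1 went the other way, with 129 and 120 CPM in control against 75.4 and 65.3 CPM with the knockdown label. The summed level of the osteocyte markers overlapped between the conditions at that day (209.7 to 214.6 CPM in control, 191 to 214.3 CPM with the knockdown label). Their part in the Sfrp2, Dkk3 and Wif1 differences was not tested. Markers of skeletal muscle, of which 2 of 5 passed the filter and both rose, summed to 1.16 to 5.29 CPM in control and 6.26 to 13.3 CPM with the knockdown label, and their part was not tested. Myog and Myh3 stayed below 10 counts in every library, and Myod1 and the adipocyte gene Plin1 were looked up but not listed among the genes counted. Chondrocyte markers (4 of 6 passed) summed to 147.7 to 369.5 CPM in control and 216.5 to 343.7 CPM with the knockdown label. Adipocyte markers (2 of 6) were at 6.15 to 9.94 and 2.02 to 5.58 CPM in the same order. Macrophage (1 of 5) and endothelial (1 of 5) markers summed to at most 5.73 and 2.38 CPM, with Ptprc, Csf1r, Cdh5 and Kdr below 10 counts everywhere.

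The time course was compared over the 10 antagonists within each condition. In control, 3 of 10 passed from day 0 to day 3 (Wif1 higher, Sfrp2 and Dkk3 lower), where 10.7% of all genes tested passed (5.29% higher and 5.45% lower). From day 3 to day 5, 2 of 10 passed, Wif1 and Notum, both higher (all genes, 1.04%, with 0.914% higher and 0.122% lower). From day 0 to day 5, 5 of 10 passed, with Wif1, Notum and Frzb higher and Sfrp2 and Dkk3 lower (all genes, 8.13%, with 4.32% higher and 3.82% lower). The place of Frzb in that count follows in part from the filter, which it passed only through control libraries of days 5 and 10. Among libraries labelled knockdown, Wif1 alone passed from day 0 to day 3 (1 of 10; all genes, 0.906%, with 0.594% higher and 0.312% lower) and from day 0 to day 5 (1 of 10; all genes, 2.00%, with 1.45% higher and 0.548% lower). From day 3 to day 5, 0 of 10 passed in edgeR (all genes, 0.0152%), with 1 at an unadjusted p under 0.05 and 0 in both DESeq2 and limma. Comparisons that share a group also share its libraries.

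Day 10 had 1 library per condition, so its values have no replicate check. The ratio of labelled knockdown over control was 2.28 for Wif1 (counting interval 1.98 to 2.62) and 1.60 for Dkk3 (1.56 to 1.65). Control over labelled knockdown was 1.14 for Sfrp2 (1.10 to 1.19) and 0.882 for Notum (0.587 to 1.33), with 51 Notum counts in each library. In control, Wif1 was 5.41 times and Notum 3.45 times as high in the day 5 mean as in the day 10 library. For the knockdown label the log2 change from day 5 to day 10 was 0.21 for Wif1 and 0.40 for Notum.

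Other genes of the pathway were counted from lists, for the average over days 0, 3 and 5, where the median log2 fold change of all genes tested was −0.003 and 26.9% of them passed. Of 11 further extracellular inhibitors, 7 were tested, 2 rose and 2 fell, and their median log2 fold change was −0.29. Igfbp4, a binding protein of insulin-like growth factors that can also block Wnt signalling, rose by 0.95 (SE 0.12, adjusted p = 0.000437, edgeR). Serpinf1, which encodes the secreted factor PEDF, fell by 0.74 (SE 0.15, adjusted p = 0.00474), and Trabd2b, a protease that cleaves Wnt ligands, fell by 1.08 (SE 0.27, adjusted p = 0.0145). Sostdc1, a relative of sclerostin, also passed upward (adjusted p = 0.00164), at 0.0779 to 0.834 CPM in control and 0.835 to 2.85 CPM with the knockdown label.

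Of 18 receptors and co-receptors, 14 were tested, 1 rose and 6 fell (median −0.30). Fzd6 rose by 1.08 (SE 0.18, adjusted p = 0.00214, edgeR), while the alternative Wnt receptors Ror2 and Ror1 fell by 0.50 (adjusted p = 0.0077) and 1.41 (adjusted p = 0.00959), and Fzd5 fell by 0.43 (adjusted p = 0.00771). Lrp5 and Lrp6, the co-receptors that sclerostin, Dkk1 and Dkk2 bind, had log2 fold changes of 0.20 (adjusted p = 0.317) and 0.08 (adjusted p = 0.778). The count of 6 was lower without control day 0 replicate 2, control day 5 replicate 1 or 2, knockdown day 0 replicate 1 or 2, knockdown day 3 replicate 1 or knockdown day 5 replicate 1. It also moved up with other single libraries left out, and it was 2 and 1 on RPKM values with pseudocounts of 1 and 0.1. The 1 that rose became 3 without control day 3 replicate 1 and 2 without replicate 2.

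Of 21 genes for Wnt ligands and their secretion, 11 were tested, 2 rose and 1 fell (median 0.11). Wnt5b fell by 2.57 (SE 0.23, adjusted p = 3.89e-05, edgeR), and Wnt10b, a ligand that favours bone formation, and Wls, the carrier of Wnt ligands to the cell surface, rose by 0.71 (adjusted p = 0.0062) and 0.70 (adjusted p = 0.019). The 2 that rose became 1 without control day 0 replicate 2, control day 5 replicate 1 or 2, knockdown day 0 replicate 1, knockdown day 3 replicate 1 or knockdown day 5 replicate 1, and the 1 that fell became 2 without control day 3 replicate 1 or knockdown day 0 replicate 1. Of 9 R-spondins, their receptors and the ligases they act on, 6 were tested, 0 rose and 2 fell (median −0.10), with Rspo2 at −0.66 (SE 0.14, adjusted p = 0.00671) and Rnf43 the other. Without control day 3 replicate 1 or 2, 1 of them rose.

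Of 16 canonical Wnt targets, 14 were tested, 3 rose and 7 fell (median −0.69). Tnfrsf19 fell by 3.50 (SE 0.11, adjusted p = 8.75e-08, edgeR), Lef1, itself a partner of beta-catenin, by 1.88 (SE 0.18, adjusted p = 5.68e-05), and Wisp1 by 1.13 (SE 0.12, adjusted p = 0.000104). Fosl1 rose by 0.66 (SE 0.09, adjusted p = 0.000638). Lef1 stood at 2.99 to 18.2 CPM in control, highest at day 5, and at 1.48 to 3.16 CPM with the knockdown label. The lists were chosen with earlier results of these libraries known, so their counts describe these libraries and are no independent evidence of a direction.

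**Figure D5:**
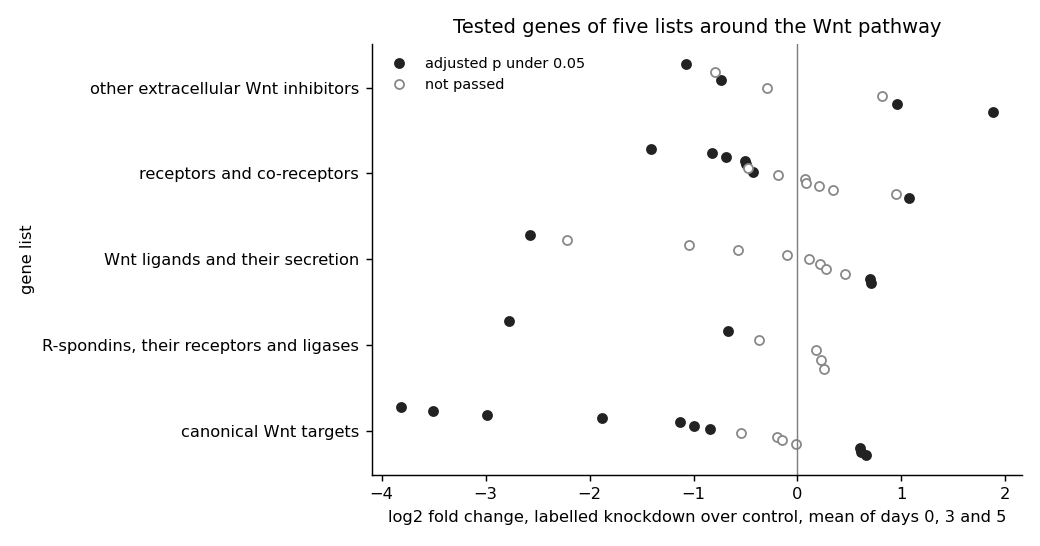
Log2 fold change of labelled knockdown over control, mean of days 0, 3 and 5, for the tested genes of 5 lists around the Wnt pathway; filled points passed an adjusted p of 0.05 and genes with 3 or fewer counts in a library are drawn at their fitted value, which is not a bound. Filled points lie on both sides of 0 in 4 of the lists, and among R-spondin genes only at the left.

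Genes whose log2 CPM followed the abundant antagonists most closely over the 14 libraries were sought among 9556 tested genes with a mean of at least 5 CPM. For Sfrp2 they were Man2b2 (Pearson r = 0.95), Dennd2a (0.94) and Il1rn (0.93), for Dkk3 Scara5 (0.98), Jun (0.97) and Vcam1 (0.96), and for Wif1 Fhod3 (0.92), Ppm1e (0.92) and Agap1 (0.92). Without control day 3 replicate 2 the first places went to Gpc6 (0.99) for Sfrp2, Apol9a (0.98) for Dkk3 and Tmem229b (0.94) for Wif1. The points share the conditions, days and libraries, so that the values only describe likeness.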

How the data were processed

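RNA of MC3T3-E1 cells was sequenced in 14 libraries of 8 groups. Raw counts of 24346 genes and RPKM of 24340 were deposited by the authors. Per the labels' protocols the libraries keep strand. The submitters' processing notes name bcl2fastq, TopHat2, edgeR and the build GRCm38, without roles or versions; how reads were counted, with which strand setting and annotation, is not given in the sources used here. Over 5207 genes the deposited RPKM were the counts divided by a gene factor and a library factor, to within 0.111%. Positions are from GENCODE M21, to which 24181 identifiers matched and 165 did not, and promoter sequences from RefSeq. A row has an identifier but no symbol and was kept.

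The filter of 10 counts in at least 2 libraries kept 13130 genes and left out 11216. A mean per group was fitted to all 14 libraries with edgeR 4.0.16 in R 4.3.3 (robust quasi-likelihood, trimmed mean of M values, 6 residual degrees of freedom), with Benjamini-Hochberg adjustment over the 13130 genes. DESeq2 1.42.0, limma 3.58.1 on log2(RPKM + 1) and log2(RPKM + 0.1), other filters and scaling, fewer samples and each of the 12 replicated libraries left out were alternatives. The tests were first run on simulated data. Fold changes are not printed where a library of the compared groups had 3 or fewer counts; ratios of summed counts have exact 95% intervals, and a group at 0 was given 3 counts. The antagonists, the gene lists and the tests were chosen with earlier results of these data known. Named were the 10 antagonists, Macf1, up to 4 genes per list with the smallest averaged p, Lrp5, Lrp6 and the 3 genes nearest each antagonist with a mean of at least 5 CPM; Lrp5 and Lrp6 were added after their values were seen.

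Replicates differed by more than sampling noise in all 6 pairs (chi-square per degree of freedom 12.7 to 174.9). Same-numbered libraries of a day deviated from their group means together (correlation across genes 0.234, 0.141 and 0.228 at days 0, 3 and 5), though groups of other days did so as well (0.0393 to 0.320). These values do not set the libraries of a day apart as pairs, and the labels give only the number. The main fit therefore used no pairing, and a replicate block was only an alternative.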

Additional observations from a re-analysis of the deposited data

Results flagged for a closer look

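The difference between labelled knockdown and control varied between days for Sfrp2 and Wif1 by a test of that difference itself. For Sfrp2 the joint test over days 0, 3 and 5 gave an adjusted p of 0.00117 and the change from day 0 to day 5 one of 0.000395 (edgeR, quasi-likelihood, Benjamini-Hochberg), with log2 fold changes of −3.31, −0.74 and −0.24 at the 3 days and control above labelled knockdown in both libraries at each. For Wif1 the joint test gave 0.00392 and the change from day 0 to day 5 gave 0.0173, with log2 fold changes of 1.10, 2.13 and −1.45 and both labelled knockdown libraries above control at days 0 and 3 and below it at day 5. Both Sfrp2 values and the joint value of Wif1 stayed under 0.05 in all 20 alternatives run, while the day 0 to day 5 value of Wif1 rose to as much as 0.112 without single libraries.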

How the results depend on the processing

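Limits of these results are the 2 libraries per group, 1 at day 10, and control day 3 replicate 2, without which the common dispersion went from 0.0474 to 0.0115. In every comparison the largest number of all genes passed in a fit without control day 3 replicate 1 or 2. A call gained in such a fit is therefore not particular to an antagonist. With 10 counts or fewer in nearly every library, Frzb, Sfrp4, Dkk2, Sost, Dkk1 and Sfrp1 are limited by depth.

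The number of antagonists higher with the knockdown label, averaged over days, was 1 in place of 2 with limma on log2(RPKM + 1) and without day 3. At day 3 the number higher was 0 in place of 2 when only the groups compared were fitted, and the number lower was 0 in place of 1 in that fit, with limma at either pseudocount and with no filter on low counts. Fitting only the groups compared also gave 0 higher and 0 lower for control from day 0 to day 3 and 0 higher from day 3 to day 5. At day 3 between the conditions and in both control steps that fit passed 0 of all genes tested, so no antagonist could pass. In the libraries labelled knockdown it gave 1 lower from day 0 to day 3, and 2 higher and 1 lower from day 0 to day 5. There it passed 1466 and 1574 of all genes tested, against 119 and 262 in the main fit. DESeq2 gave 1 lower in both comparisons, with 459 and 612 of all genes passed. Limma on log2(RPKM + 1) gave 2 lower in place of 1 for the change of the difference from day 0 to day 5. The Sfrp2 over Dkk3 ratio of control day 3 was 2.745 from scaled CPM per kilobase and 2.737 from RPKM. The cause of these changes was not tested.

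With each library left out, the numbers higher and lower were 1 to 2 and 2 to 2 (average), 0 to 1 and 1 to 1 (day 0), 2 to 2 and 0 to 1 (day 3), 0 to 1 and 0 to 3 (day 5). They were 0 to 2 and 2 to 2 (control day 0 to 3), 1 to 4 and 0 to 1 (day 3 to 5), 1 to 3 and 2 to 2 (day 0 to 5), and with the knockdown label 1 to 2 and 0 to 1, 0 to 0 and 0 to 0, and 1 to 3 and 0 to 1 in the same order. For the change of the difference they were 1 to 2 and 0 to 1, and 2 to 3 for the joint test. Each of these fits leaves 1 library in a group, and the number of all genes passed also moved with the library left out. These ranges therefore describe the fits and show nothing particular to the antagonists. With the replicate block the averaged log2 fold change of Sfrp2 was −1.43 and that of Wif1 0.58, and the block changed no call of an antagonist.

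Values that turned sign were those of Wif1 averaged over days without day 3 (−0.18), Macf1 without day 3 (−0.047) and with single libraries left out (−0.081 to 0.512, the first without control day 3 replicate 2), and Notum in control from day 0 to day 3, which was 0.01 and became −0.08 and −0.19 with limma at pseudocounts of 1 and 0.1, −0.027 with no filter, −0.01 with only the groups compared, and −0.355 to 0.236 with single libraries left out (−0.188 without control day 0 replicate 2, −0.355 without control day 3 replicate 1). Notum with the knockdown label from day 0 to day 3 was −0.20 to 0.775 with single libraries left out, the first without knockdown day 3 replicate 2. No Notum value in these comparisons passed the test.

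Over all genes, the averaged comparison called 3530, or 1961 to 7604 in the alternatives; the ranges were 367 to 3742 around 931 at day 0, 0 to 7718 around 1652 at day 3 and 338 to 4118 around 1022 at day 5. In control they were 0 to 7183 around 1411 (day 0 to 3), 0 to 7067 around 136 (day 3 to 5) and 333 to 4124 around 1068 (day 0 to 5), and with the knockdown label 13 to 1936 around 119, 0 to 72 around 2 and 36 to 2032 around 262. They were 55 to 1313 around 179 for the change of the difference and 43 to 6510 around 131 for the joint test.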
